A study of Mus musculus with 21 samples.

Results

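Collagen chains are the protein strands that wind together into the triple helices of the extracellular matrix, and each chain is the product of 1 gene. The genes described here are all those whose symbol has the form Col, a number, a, a number, which gave 44 of the 55418 gene symbols in the counted annotation. They fall into 11 fibrillar chains, 8 basement membrane chains, 9 fibril-associated chains, 8 beaded-filament and related chains, 4 transmembrane chains and 4 anchoring or short-chain members. Fibrillar collagens I and III bear most of the tensile load of liver scar tissue and are laid down mainly by activated hepatic stellate cells and portal fibroblasts. Basement membrane collagens form sheets under endothelium and bile ducts, and fibril-associated and beaded collagens decorate or link the fibrils.

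Whole livers of mice were measured by RNA-seq in 4 groups, in a series titled for liver fibrosis after loss of hepatic Mboat7. Mboat7 encodes an acyltransferase that places arachidonic acid on phosphatidylinositol. KO mice had Mboat7 deleted in hepatocytes and WT mice were Mboat7 wildtype, so the other cells of a KO liver kept the gene. The driver of the deletion is not given in the sources used here. KO HFMCD (4 livers) and WT HFMCD (4 livers) came from mice that were 6 to 8 weeks old when put for 6 weeks on a choline-deficient, low-methionine diet rich in fat, called HFCDD in the treatment notes. KO chow (7 livers) and WT chow (6 livers) came from mice of 10 weeks on chow. Diet was therefore tied to age and to separate ranges of animal numbers, and these cannot be told apart from it. All livers had been rinsed with PBS before RNA extraction, each library has its own animal number, and no sex or strain is given in the labels.

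Each library held 17502231 to 25822972 counts, and 19919 to 22261 genes had at least 1 read. Albumin took 5.39% to 8.96% of the counts in every liver, and all 10 hepatocyte markers examined had reads in each group. Mboat7 averaged 18.9 ± 2.24 CPM (read counts scaled to a common library size) in KO HFMCD livers and 36.2 ± 1.47 CPM in WT HFMCD livers (SD, n = 4 each). On chow it averaged 21.3 ± 1.77 CPM in KO (SD, n = 7) and 36.2 ± 2.72 CPM in WT (SD, n = 6), and the ranges did not overlap on either diet. Chow libraries differed in transcripts of other tissues: Dmbt1, a gene of mucosal epithelia, reached 95.6 CPM in KO chow replicate 1, 54.6 in KO chow replicate 7, 41.6 in WT chow replicate 3 and 27.6 in WT chow replicate 5, where the other 9 chow livers had no more than 0.596 CPM. For tests that rest on KO chow, values without replicates 1 and 7 are given where they change a call or move a value by more than 1.5 times. In whole tissue, fewer cells of a type and less RNA per cell cannot be told apart, and this holds for every level below.

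The collagen genes lie on 15 chromosomes, and 3 pairs of type IV chain genes are transcribed away from a shared stretch of DNA. In GRCm38 the annotated starts of Col4a1 and Col4a2 lie 21 bases apart on chromosome 8, those of Col4a3 and Col4a4 72 bases apart on chromosome 1, and those of Col4a5 and Col4a6 1309 bases apart on the X chromosome. The first exons of Col4a1 and Col4a2 overlap by 22 bases on opposite strands, and exons of 10 collagen genes in all overlap those of a gene on the other strand. The strand setting of the counting is not given in the sources used here, so reads in such stretches cannot be told apart by gene. The RefSeq promoter table (GRCm38.p6; 250 bases before to 50 after a start) held 38 windows of 35 of the 44 genes. Both windows of the Col4a1 and Col4a2 pair are shown because the 2 genes share 78 of these bases, from 11312777 to 11312854, and moved together with diet. Windows of Col1a2 and Col3a1 are shown as major fibrillar chains that rose with the diet, and the pair of Col18a1 windows because that gene has the highest level of all chains and fell. Capitals mark the CCAAT box, the TATA box (letters TATAAA) and the GC box (letters GGGCGG), each also as its reverse complement.
Col4a2 promoter window (chr8:11312555-11312854, plus strand): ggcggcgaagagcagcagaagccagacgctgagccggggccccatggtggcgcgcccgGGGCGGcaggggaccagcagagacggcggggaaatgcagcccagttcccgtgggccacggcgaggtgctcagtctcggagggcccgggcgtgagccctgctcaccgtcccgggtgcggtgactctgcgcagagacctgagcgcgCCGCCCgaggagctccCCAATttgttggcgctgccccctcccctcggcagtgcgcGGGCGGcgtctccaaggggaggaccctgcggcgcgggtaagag
Col4a1 promoter window (chr8:11312777-11313076, minus strand): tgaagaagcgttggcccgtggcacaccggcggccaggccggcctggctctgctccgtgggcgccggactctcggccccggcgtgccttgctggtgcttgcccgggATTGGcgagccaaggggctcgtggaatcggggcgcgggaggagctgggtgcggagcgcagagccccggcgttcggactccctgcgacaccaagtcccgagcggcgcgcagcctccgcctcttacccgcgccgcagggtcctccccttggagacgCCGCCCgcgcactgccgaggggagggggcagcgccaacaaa
Col1a2 promoter window (chr6:4505368-4505667, plus strand): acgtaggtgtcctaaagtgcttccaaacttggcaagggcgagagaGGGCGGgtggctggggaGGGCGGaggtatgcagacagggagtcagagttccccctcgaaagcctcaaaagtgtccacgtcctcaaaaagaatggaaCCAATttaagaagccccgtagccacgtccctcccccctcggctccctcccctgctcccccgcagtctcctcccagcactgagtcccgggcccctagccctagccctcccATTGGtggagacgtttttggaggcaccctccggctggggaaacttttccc
Col3a1 promoter window (chr1:45311288-45311587, plus strand): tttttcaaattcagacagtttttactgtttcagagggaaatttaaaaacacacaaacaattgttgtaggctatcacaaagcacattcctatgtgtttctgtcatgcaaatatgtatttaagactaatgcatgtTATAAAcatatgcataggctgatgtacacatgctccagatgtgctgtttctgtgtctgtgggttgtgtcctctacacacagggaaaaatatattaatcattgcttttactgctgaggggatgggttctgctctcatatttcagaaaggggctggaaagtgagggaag
Col18a1 upstream promoter window (chr10:77166481-77166780, minus strand): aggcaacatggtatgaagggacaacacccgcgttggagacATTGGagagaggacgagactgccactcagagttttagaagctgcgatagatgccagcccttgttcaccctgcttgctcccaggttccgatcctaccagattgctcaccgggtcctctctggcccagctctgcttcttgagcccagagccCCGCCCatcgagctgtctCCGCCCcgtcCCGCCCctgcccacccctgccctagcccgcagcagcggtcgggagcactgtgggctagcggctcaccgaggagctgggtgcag
Col18a1 downstream promoter window (chr10:77113656-77113955, minus strand): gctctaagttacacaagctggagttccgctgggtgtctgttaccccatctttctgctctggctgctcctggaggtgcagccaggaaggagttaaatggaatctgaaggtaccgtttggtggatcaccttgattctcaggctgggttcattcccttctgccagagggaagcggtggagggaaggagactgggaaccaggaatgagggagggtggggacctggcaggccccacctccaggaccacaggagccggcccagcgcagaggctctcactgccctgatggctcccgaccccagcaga

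Over both strands, with overlapping matches allowed, the GC box occurred in 23 of the 38 collagen windows, the CCAAT box in 13 and the TATA box in 5. Among all 32851 windows of the table these motifs occurred in 35.66%, 37.41% and 13.62%. The Col3a1 window held 1 TATA box and neither other motif, and the Col1a2 window held 2 CCAAT box and 2 GC box matches. The Col4a1 and Col4a2 windows each held 1 CCAAT box, with GC contents of 74.0% and 73.7%, against 37.7% for Col3a1. The upstream Col18a1 window held 3 GC boxes and 1 CCAAT box, and the downstream one held none of the 3. A match describes the letters of the window and shows no binding.

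Collagen transcripts made up a larger share of the liver's RNA on the HFMCD diet, and the kinds of chain present changed with it. The 44 genes summed to 1897 to 2112 CPM in KO HFMCD livers and 1661 to 1865 CPM in WT HFMCD livers, against 966 to 1330 CPM in KO chow and 948 to 1364 CPM in WT chow livers. On chow most of this was 1 gene: Col18a1, whose basement membrane product gives the fragment endostatin and which hepatocytes express, took 77.7% ± 6.68 of collagen CPM in KO (SD, n = 7) and 82.0% ± 1.71 in WT (SD, n = 6). On HFMCD its share was 31.4% ± 2.004 in KO and 41.2% ± 2.86 in WT (SD, n = 4 each). Fibrillar chains took 38.2% ± 2.73 of collagen CPM in KO HFMCD and 30.6% ± 2.35 in WT HFMCD livers (SD, n = 4 each), against 10.5% ± 4.03 in KO chow (SD, n = 7) and 7.11% ± 2.31 in WT chow livers (SD, n = 6). The 3 chains of types I and III together reached 633 to 707 CPM in KO HFMCD and 404 to 556 CPM in WT HFMCD livers, without overlap. On chow the same 3 chains summed to 18.6 to 125 CPM in KO, with a median of 29.4, and 16.8 to 49.7 CPM in WT, with a median of 28.6.

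**Figure D1:**
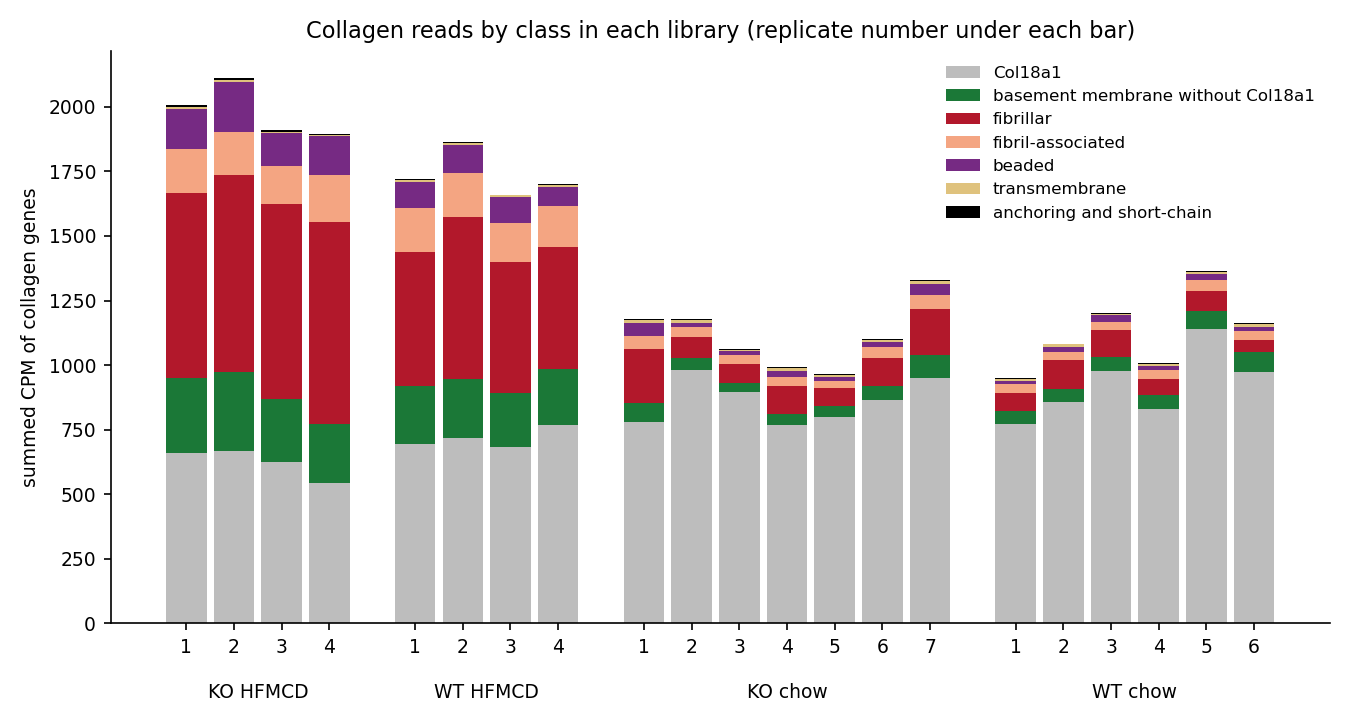
Summed CPM of the 44 collagen genes in each of the 21 libraries, stacked by class with Col18a1 apart from the other basement membrane chains; bars start at 0 and the replicate number stands under each. The 8 HFMCD livers reach 1897 to 2112 CPM in KO and 1661 to 1865 CPM in WT, above all 13 chow bars, and the fibrillar block is the part that differs most in height.

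Set per kilobase of the longest protein-coding transcript, which allows genes to be compared within a group, Col18a1 had the highest level of all chains in every group, at a mean of 111 CPM per kb in KO HFMCD, 128 in WT HFMCD, 154 in KO chow and 165 in WT chow. Col3a1, the single chain of type III collagen, came second in both HFMCD groups, at 65.3 CPM per kb in KO and 43.1 in WT. Col1a2, Col14a1, Col4a1 and Col1a1 followed at 33.4, 23.1, 22.8 and 22.2 CPM per kb in KO HFMCD livers. Col14a1, Col4a1 and Col1a1 lie close together in this order, and dividing by all exonic bases instead of the transcript moved Col1a2 behind them to rank 6 in both HFMCD groups. On chow the second rank was held in KO by Col5a3, a type V chain, at 5.15 CPM per kb, and in WT by Col4a1 at 4.54.

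Of the 44 chains, 33 passed the filter on low counts and were tested among 15677 genes. The other 11 were Col2a1, Col11a1, Col9a1, Col9a2, Col19a1, Col22a1, Col6a4, Col26a1, Col17a1, Col25a1 and Col10a1, of which none had more than 67 reads over all 21 libraries. Col19a1 and Col26a1 had no read in any library, which allows up to 0.0310 CPM over the KO HFMCD group and 0.0317 over WT HFMCD, and up to 0.0206 over KO chow and 0.0237 over WT chow (3 counts of the group's scaled total, counting error only). Col2a1, the chain of cartilage collagen, had 3 reads in all, and Col10a1, a chain of hypertrophic cartilage, had 1.

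Most of the tested chains were higher on HFMCD than on chow in both genotypes. In KO livers 21 of the 33 tested chains were higher on HFMCD and 7 were lower, where 33.7% and 36% of all genes tested were called so (edgeR quasi-likelihood test, adjusted p under 0.05). In WT livers 19 were higher and 6 were lower, beside 29% and 33.6% of all genes. The median log2 fold change over the tested chains was 1.37 in KO and 1.34 in WT, against -0.02 and -0.05 over all genes. Leaving out KO chow replicates 1 and 7 gave a median of 2.08 in KO, where 23 chains were higher and 7 lower, beside 33.9% and 35.4% of all genes. In WT that fit called 20 higher and 6 lower, with a median of 1.33, where 29.6% and 33.8% of all genes were. With all libraries, all 19 chains higher in WT were also among the 21 higher in KO, which is 90.5% of the KO calls, and 5 chains were lower in both. At least 2-fold higher were 20 chains in KO and 16 in WT, where 17.9% and 15.7% of all genes were. By class, 5 of 9 tested fibrillar, 6 of 8 basement membrane and 3 of 5 fibril-associated members were higher in KO. So were 4 of 6 beaded, 1 of 2 transmembrane and 2 of 3 anchoring or short-chain members. In the same order of classes, 5, 5, 3, 4, 0 and 2 were higher in WT. Lower were 3, 1, 1, 0, 1 and 1 of these tested members in KO and 2, 1, 2, 0, 0 and 1 in WT, beside the shares of all genes given above. In KO 17 chains had all HFMCD values above all chow values and 6 had all below, where 25.7% and 27.3% of all genes did. In WT these were 19 and 4 chains, where 23.1% and 24.1% of all genes did. The diet comparisons in KO and WT share no library, but each shares a group with the genotype comparisons further on, and all come from 1 fit.

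Among the abundant chains the fibrillar Col3a1 and Col1a1 rose most. Some other fibrillar chains fell, 33.3% of those tested in KO and 22.2% in WT, where 36% and 33.6% of all genes did. Col1a1 had 128, 135, 124 and 141 CPM in the 4 KO HFMCD livers, against 87.0, 118, 84.6 and 81.5 CPM in the 4 WT HFMCD livers. On chow Col1a1 stood at 2.94 at the lowest, 4.53 at the median and 25.9 at the highest CPM in the 7 KO livers, and at 3.16 at the lowest, 4.03 at the median and 9.62 at the highest CPM in the 6 WT livers. All 8 HFMCD values of this alpha-1 chain of type I collagen lay above all 13 chow values. Col1a1 rose with the diet by a log2 value of 3.76 (SE 0.50, edgeR adjusted p = 3.15e-06) in KO and 4.20 (SE 0.55, edgeR adjusted p = 3.79e-06) in WT. Col1a2, the alpha-2 chain that completes the type I trimer, had 169, 193, 172 and 181 CPM in KO HFMCD livers, against 137, 156, 120 and 109 CPM in WT HFMCD livers, and on chow 7.54 to 44.2 CPM in KO and 7.81 to 18.4 CPM in WT. On the log2 scale Col1a2 was higher on HFMCD by 3.19 (SE 0.39, edgeR adjusted p = 1.06e-06) in KO and 3.38 (SE 0.42, edgeR adjusted p = 1.75e-06) in WT. Again the diets did not overlap in either genotype. Col3a1 had 336.8, 348, 384 and 385 CPM in the 4 KO HFMCD livers, against 226, 282, 238 and 213 CPM in the 4 WT HFMCD livers. On chow Col3a1 stood at 8.13 at the lowest, 13.8 at the median and 55.1 at the highest CPM in the 7 KO livers, and at 4.32 at the lowest, 12.6 at the median and 21.7 at the highest CPM in the 6 WT livers. Col3a1 rose with the diet by a log2 value of 3.90 (SE 0.49, edgeR adjusted p = 1.59e-06) in KO and 4.27 (SE 0.53, edgeR adjusted p = 2.05e-06) in WT. The diets were separate for this chain as well. Without KO chow replicates 1 and 7 the KO values were larger, at 4.998 for Col1a1, 4.02 for Col1a2 and 4.90 for Col3a1. Those replicates held the 2 highest chow levels of all 3 chains.

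The type V chains, which sit inside type I fibrils and set their diameter, split. Col5a2 averaged 36.8 ± 1.43 CPM in KO HFMCD and 23.5 ± 1.94 CPM in WT HFMCD livers (SD, n = 4 each), against 5.14 ± 3.46 CPM in KO chow (SD, n = 7) and 4.29 ± 0.678 CPM in WT chow livers (SD, n = 6), a log2 change of 2.82 (SE 0.29, edgeR adjusted p = 7.07e-08) in KO and 2.45 (SE 0.31, edgeR adjusted p = 1.54e-06) in WT. Without KO chow replicates 1 and 7 the KO value was 3.55. Col5a1 rose by less, with log2 fold changes of 1.09 (SE 0.14) in KO and 1.34 (SE 0.15) in WT. Col5a3 fell in KO to 8.42 to 15.5 CPM on HFMCD, against 16.0 to 45.6 CPM on chow, with a log2 change of -1.45 (SE 0.34, edgeR adjusted p = 0.00108). In WT it had 13.7 to 18.9 CPM on HFMCD and 13.7 to 52.5 CPM on chow, and its log2 change of -0.58 was not called (edgeR adjusted p = 0.145). Col11a2, a type XI chain best known from cartilage, and Col27a1, a minor fibrillar chain, fell in both genotypes, to log2 fold changes of -2.02 and -1.39 in KO and -1.16 and -0.92 in WT. Col24a1, at no more than 1.03 CPM in any library, was not called in either with all libraries, at -1.07 (SE 0.52, edgeR adjusted p = 0.0675) in KO and -0.49 (SE 0.55, edgeR adjusted p = 0.453) in WT. It was called lower in KO without KO HFMCD replicate 3, KO chow replicate 2 or WT HFMCD replicate 4 (edgeR adjusted p = 0.0319, 0.0431 and 0.037; 0.0319 to 0.204 over all alternatives), and in WT without WT HFMCD replicate 4 (edgeR adjusted p = 0.0275; 0.0275 to 0.796).

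**Figure D2:**
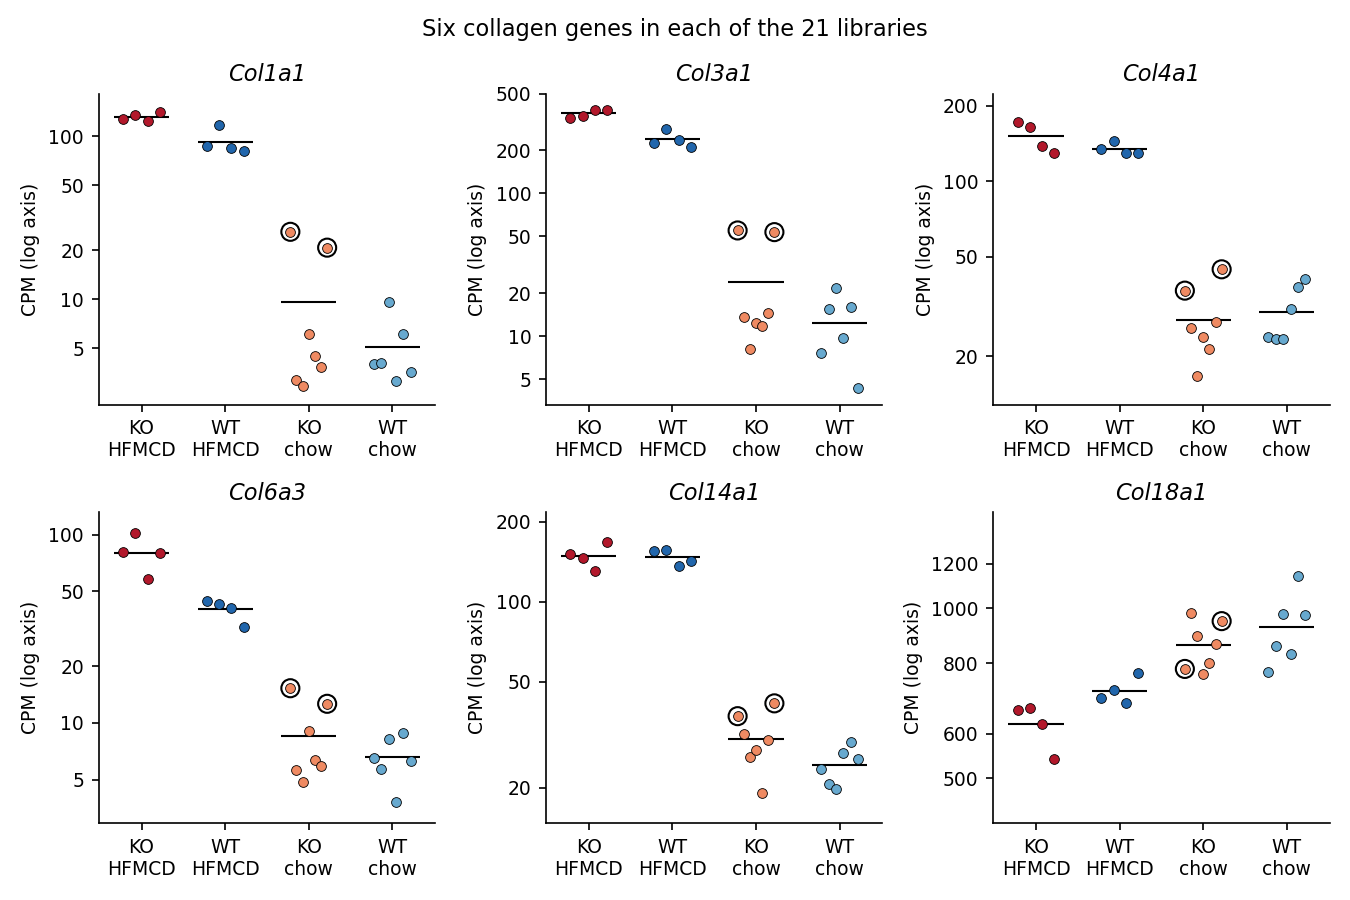
CPM (log axes) of Col1a1, Col3a1, Col4a1, Col6a3, Col14a1 and Col18a1 in each library by group; points are libraries, lines are group means, and rings mark KO chow replicates 1 and 7. For the first 5 genes the 8 HFMCD libraries lie above all 13 chow libraries, and for Col18a1 the HFMCD libraries lie below those of the same genotype on chow.

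Basement membrane chains rose less than type I and III chains, apart from Col18a1, which fell. Col4a1 and Col4a2 twist together as the general type IV network of vessel and duct basement membranes. Col4a1 had 172, 164, 138 and 129.5 CPM in the 4 KO HFMCD livers, against 134, 144, 129 and 129.6 CPM in the 4 WT HFMCD livers. On chow Col4a1 stood at 16.7 at the lowest, 25.9 at the median and 44.5 at the highest CPM in the 7 KO livers, and at 23.4 at the lowest, 27.4 at the median and 40.6 at the highest CPM in the 6 WT livers. The diets were separate. On the log2 scale Col4a1 was higher on HFMCD by 2.43 (SE 0.20, edgeR adjusted p = 1.87e-09) in KO and 2.16 (SE 0.21, edgeR adjusted p = 3.03e-08) in WT. Its divergent neighbour Col4a2 averaged 84.6 ± 15.3 CPM in KO HFMCD and 68.7 ± 2.93 CPM in WT HFMCD livers (SD, n = 4 each), against 18.0 ± 5.78 CPM in KO chow (SD, n = 7) and 17.9 ± 4.16 CPM in WT chow livers (SD, n = 6), with log2 fold changes of 2.22 (SE 0.19) in KO and 1.94 (SE 0.20) in WT. The rarer type IV chains, known from kidney glomerulus and other special basement membranes, were low. Col4a3 rose in both genotypes, by 1.92 and 1.77 on the log2 scale in KO and WT, at 2.13 ± 0.4997 and 1.52 ± 1.08 CPM on HFMCD (SD, n = 4 each). Col4a5 rose to 8.76 to 18.8 CPM in KO HFMCD, against 1.84 to 5.43 CPM in KO chow, and to 5.20 to 6.92 CPM in WT HFMCD, against 2.001 to 4.42 CPM in WT chow. Its log2 fold changes were 2.01 (SE 0.29, edgeR adjusted p = 2.14e-06) in KO and 0.85 (SE 0.30, edgeR adjusted p = 0.0194) in WT, the second lost without WT HFMCD replicate 2 (edgeR adjusted p = 0.0534). Col4a4 was called higher in KO, at 1.15 (SE 0.37, edgeR adjusted p = 0.00855), and not in WT, at 0.23 (SE 0.42, edgeR adjusted p = 0.638). Col4a6, at 0.27 (SE 0.74, edgeR adjusted p = 0.753) in KO and -0.84 (SE 0.92, edgeR adjusted p = 0.44) in WT, was called in neither. Without KO chow replicates 1 and 7 it was called higher in KO, at 2.06 (SE 0.63, edgeR adjusted p = 0.0061), and over all alternatives its adjusted p in KO ran from 0.00295 to 0.937.

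Col15a1, which like Col18a1 is a multiplexin at the outer face of basement membranes, stood at 11.8, 12.02, 14.4 and 20.1 CPM in KO HFMCD livers, against 7.66, 10.9, 7.95 and 7.34 CPM in WT HFMCD livers. On chow it had 1.31 to 5.64 CPM in KO and 3.73 to 7.18 CPM in WT. Col15a1 rose with the diet by a log2 value of 1.90 (SE 0.26, edgeR adjusted p = 1.08e-06) in KO and 0.66 (SE 0.27, edgeR adjusted p = 0.0365) in WT. The WT call was lost in 7 of 30 alternatives, among them the fit without the 4 Dmbt1-rich chow libraries. It was also lost when any of 5 single WT libraries was left out (HFMCD replicates 2 and 3, chow replicates 2, 3 and 4; edgeR adjusted p = 0.0513 to 0.13). Col18a1 had 661, 666, 623 and 541 CPM in the 4 KO HFMCD livers, against 693, 716, 681 and 769 CPM in the 4 WT HFMCD livers. On chow Col18a1 stood at 766 at the lowest, 866 at the median and 979 at the highest CPM in the 7 KO livers, and at 773 at the lowest, 916 at the median and 1139 at the highest CPM in the 6 WT livers. This most abundant chain was lower on HFMCD in both genotypes, without overlap. Its log2 fold changes, HFMCD over chow, were -0.47 (SE 0.10, edgeR adjusted p = 0.000251) in KO and -0.37 (SE 0.10, edgeR adjusted p = 0.00317) in WT.

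Among the fibril-associated chains, which lie on the surface of fibrils, Col14a1 was the most abundant. Col14a1 had 152, 147, 130.4 and 168 CPM in the 4 KO HFMCD livers, against 155, 157, 136 and 143 CPM in the 4 WT HFMCD livers. On chow Col14a1 stood at 19.1 at the lowest, 30.3 at the median and 41.5 at the highest CPM in the 7 KO livers, and at 19.8 at the lowest, 24.5 at the median and 29.6 at the highest CPM in the 6 WT livers. Its KO and WT values overlapped on each diet and its diets did not overlap. Col14a1 rose with the diet by a log2 value of 2.29 (SE 0.14, edgeR adjusted p = 3.58e-12) in KO and 2.603 (SE 0.15, edgeR adjusted p = 2.24e-12) in WT. Col12a1 and Col16a1 rose by 1.12 and 1.42 on the log2 scale in KO and by 0.74 and 1.42 in WT. Col20a1, a minor chain, fell to 0.159 to 0.290 CPM in KO HFMCD, against 1.16 to 2.74 CPM in KO chow, and to 0.121 to 0.567 CPM in WT HFMCD, against 1.70 to 4.39 CPM in WT chow. Its log2 fold changes were -3.04 (SE 0.38, edgeR adjusted p = 2.07e-07) in KO and -3.69 (SE 0.38, edgeR adjusted p = 1.42e-08) in WT, and -4.37 in WT without WT HFMCD replicate 4. Col9a3, a type IX chain otherwise typical of cartilage, had no more than 1.01 CPM in any library and was called lower in WT at -1.90 (SE 0.68, edgeR adjusted p = 0.0186), a call lost without WT HFMCD replicate 4 or WT chow replicate 1 (edgeR adjusted p = 0.0633 and 0.0704). In KO it was not called, at 0.61 (SE 0.48, edgeR adjusted p = 0.263).

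Type VI collagen forms beaded microfilaments around cells from the products of Col6a1, Col6a2 and Col6a3, and all 3 rose. Col6a3 had 81.2, 101, 58.4 and 79.3 CPM in the 4 KO HFMCD livers, against 44.6, 43.0, 40.6 and 32.1 CPM in the 4 WT HFMCD livers. On chow Col6a3 stood at 4.87 at the lowest, 6.37 at the median and 15.3 at the highest CPM in the 7 KO livers, and at 3.82 at the lowest, 6.41 at the median and 8.86 at the highest CPM in the 6 WT livers. On the log2 scale Col6a3 was higher on HFMCD by 3.22 (SE 0.26, edgeR adjusted p = 2.74e-09) in KO and 2.61 (SE 0.28, edgeR adjusted p = 1.8e-07) in WT. Col6a1 and Col6a2 had log2 fold changes of 2.06 (SE 0.28) and 2.39 (SE 0.32) in KO and of 2.06 (SE 0.30) and 2.56 (SE 0.35) in WT. Without KO chow replicates 1 and 7 the KO value of Col6a2 was 3.09. Col6a5 and Col6a6, alternatives to Col6a3, had no more than 1.90 CPM in any library and were not called with all libraries. Col6a5 had 0.88 (SE 0.61, edgeR adjusted p = 0.201) in KO, against 2.36 (SE 0.52, edgeR adjusted p = 0.000358) without KO chow replicates 1 and 7 and 1.44 (SE 0.58, edgeR adjusted p = 0.0308) without replicate 1 alone (0.000358 to 0.423 over all alternatives). In WT Col6a5 had 1.597 (SE 0.71, edgeR adjusted p = 0.0546), its 4 HFMCD values lay above its 6 chow values, and it was called higher in 13 of 30 alternatives (0.00401 to 0.141), among them those without KO chow replicate 1, 2, 3, 4, 5 or 7 and without WT chow replicate 5. Col6a6 had -0.05 (SE 0.55, edgeR adjusted p = 0.935) in KO, against 0.81 (SE 0.53, edgeR adjusted p = 0.178) without KO chow replicates 1 and 7, and 0.75 (SE 0.62, edgeR adjusted p = 0.301) in WT, called only without the 4 Dmbt1-rich chow libraries, at 1.36 (SE 0.58, edgeR adjusted p = 0.0495). Col28a1, a related chain known from peripheral nerve, had the largest log2 fold change of the 33 in both genotypes, at 4.17 (SE 0.53, edgeR adjusted p = 2.55e-07) in KO and 4.35 (SE 0.64, edgeR adjusted p = 3.18e-06) in WT, at a low level. It had 3.22, 2.32, 1.67 and 1.66 CPM in KO HFMCD livers, against 1.77, 1.29, 1.01 and 1.22 CPM in WT HFMCD livers, and at most 0.295 CPM in KO chow and 0.168 CPM in WT chow. The Col28a1 value in KO was 5.56 without KO chow replicates 1 and 7.

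The transmembrane chain Col13a1, found at cell adhesion sites, fell in KO to 2.23 to 8.46 CPM on HFMCD, against 6.15 to 12.2 CPM on chow, with a log2 change of -0.93 (SE 0.28, edgeR adjusted p = 0.00516). In WT it was -0.35 (SE 0.28, edgeR adjusted p = 0.277) and was not called. Col23a1 was called higher in KO at 0.89 (SE 0.34, edgeR adjusted p = 0.0247), a call lost without KO HFMCD replicate 3 or 4 (edgeR adjusted p = 0.0760 and 0.0524), and had no more than 0.905 CPM in any library. Col8a1, a short-chain network collagen of vessel walls and cornea, had 4.45 to 5.72 CPM in KO HFMCD and 2.31 to 2.86 CPM in WT HFMCD livers, against 0.179 to 1.597 CPM in KO chow and 0.196 to 0.480 CPM in WT chow livers, a log2 change of 2.82 (SE 0.33, edgeR adjusted p = 7.36e-08) in KO and 2.95 (SE 0.38, edgeR adjusted p = 5.6e-07) in WT. The KO value of Col8a1 was 3.59 without KO chow replicates 1 and 7. Its partner Col8a2 was called higher in both genotypes at no more than 0.913 CPM, at 1.37 (SE 0.50) in KO and 1.50 (SE 0.55) in WT. Those calls were lost without KO HFMCD replicate 1 in KO and without WT HFMCD replicate 2 in WT (edgeR adjusted p = 0.0541 and 0.0554), and the KO value of Col8a2 was 2.59 without KO chow replicates 1 and 7. Col7a1, the chain of the anchoring fibrils of skin, fell in both genotypes, by 2.95 on the log2 scale in KO and by 2.38 in WT, to no more than 0.437 CPM in KO HFMCD and 0.412 CPM in WT HFMCD livers.

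**Figure D3:**
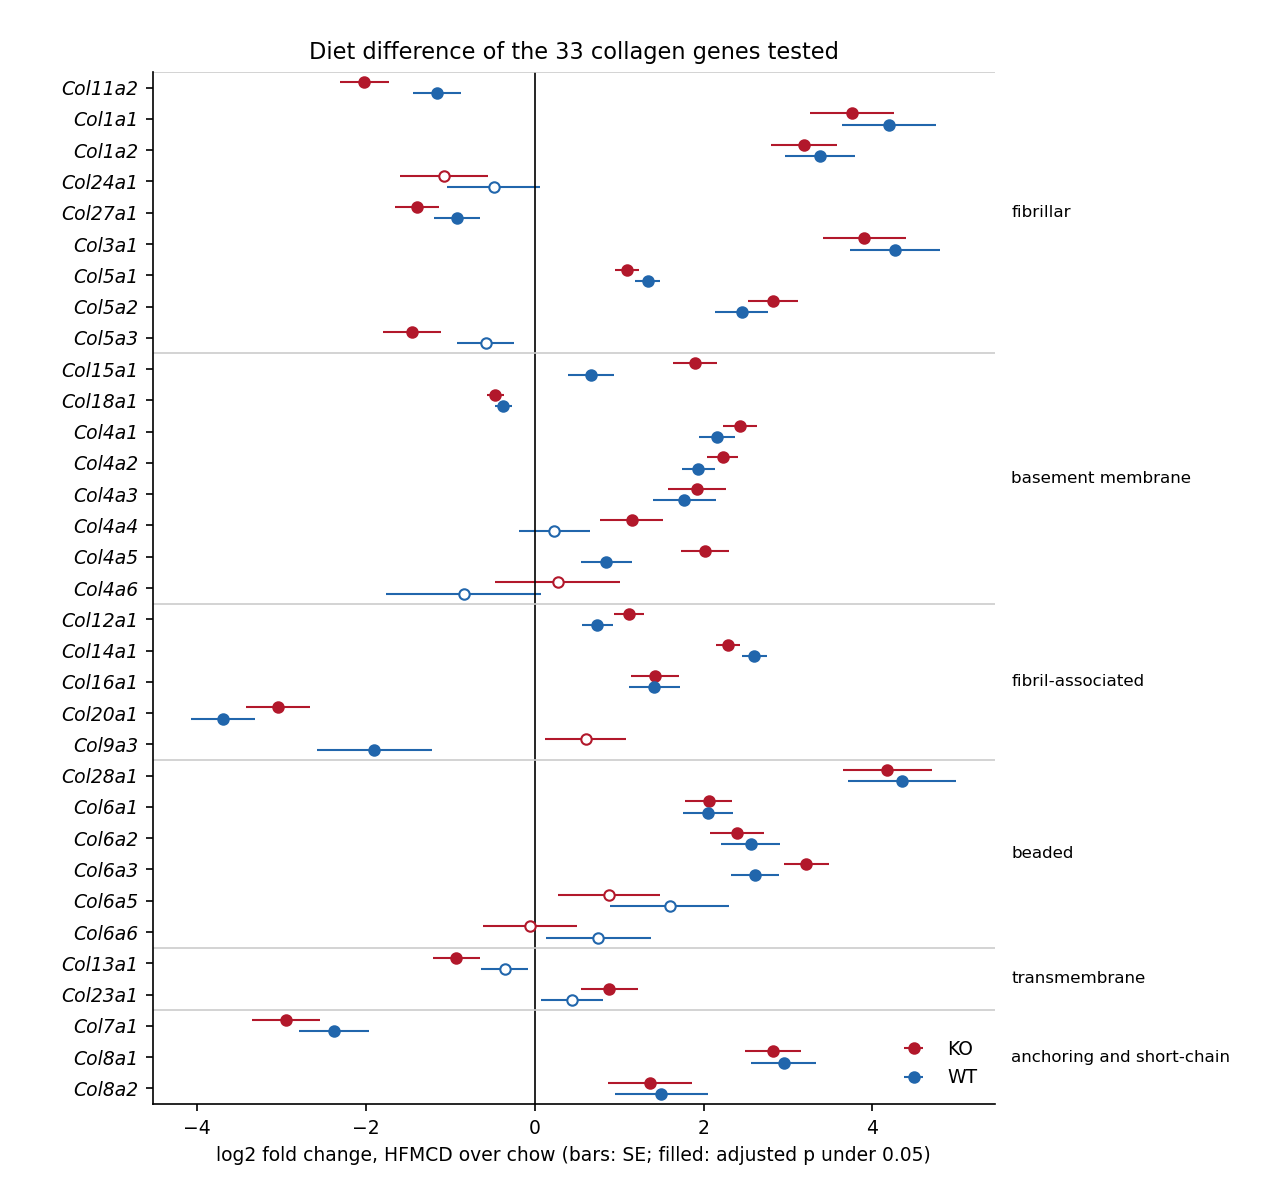
Log2 fold changes, HFMCD over chow, of the 33 tested collagen genes by class, in KO (red, upper of each pair) and WT (blue, lower); bars are SE and filled points have an edgeR adjusted p under 0.05. In both genotypes Col28a1, Col3a1 and Col1a1 lie farthest to the right and Col20a1 and Col7a1 farthest to the left.

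Marker genes of other cell types moved with the diet as well. The 10 myofibroblast markers (Acta2, Tagln, Timp1, Lox, Lum, Dpt, Mgp, Fbln2, Thbs2 and Postn) summed to 333.1 to 383 CPM in KO HFMCD and 203 to 255 CPM in WT HFMCD livers, against 26.7 to 144 CPM in KO chow and 23.3 to 82.2 CPM in WT chow livers. KO chow replicates 1 and 7 had 144 and 114 CPM, and the remaining KO chow livers had at most 45.2 CPM. The highest WT chow sum was that of the Dmbt1-rich replicate 3. The 10 macrophage markers summed to 1313 to 1739 and 1374 to 1590 CPM on HFMCD in KO and WT, against 296 to 413 and 215 to 478 CPM on chow. Called higher were 8 myofibroblast and 8 macrophage markers in KO and 7 and 9 in WT, and none was called lower, beside the shares of all genes given above. The 12 cholangiocyte markers summed to 583 to 836 CPM in KO HFMCD and 218 to 259 CPM in WT HFMCD livers, against 49.6 to 134 CPM in KO chow and 47.3 to 87.6 CPM in WT chow livers, with 10 of the 11 tested called higher in KO and 5 in WT. The 12 hepatic stellate cell markers summed to 502 to 618 and 547 to 596 CPM on HFMCD in KO and WT, against 295 to 485 and 266 to 393 CPM on chow, with 8 called higher in each genotype and 3 called lower in KO. The 8 portal fibroblast and mesenchyme markers summed to 58.3 to 109 and 37.7 to 48.3 CPM on HFMCD in KO and WT, against 7.11 to 44.0 and 10.7 to 22.5 CPM on chow, with 4 of the 7 tested called higher in each. In both genotypes the sums of these 5 lists on HFMCD lay above those on chow. The sums of the 10 endothelial markers overlapped between the diets, at 406 to 434 CPM on HFMCD and 325 to 505 CPM on chow in KO, and at 453 to 522 CPM on HFMCD and 278 to 455 CPM on chow in WT. Of these 10 markers 3 were called higher and 2 lower in KO, where 33.7% and 36% of all genes were. In WT 5 were called higher and 0 lower, where 29% and 33.6% of all genes were. The sums of the 10 hepatocyte markers also overlapped between the diets. Of these 10 markers 5 were called lower in KO and 4 in WT, where 36% and 33.6% of all genes were, and 0 were called higher. No marker of the lists in this paragraph was at 0 reads in any group, and the part of these cell types in the collagen values was not tested.

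Between KO and WT livers on HFMCD most chains leaned towards KO, and none was called. Of the 33 chains 27 had a positive log2 fold change, where 51.1% of all genes did, and the median was 0.43 against 0.01 over all genes. No chain passed an edgeR adjusted p of 0.05, where 0.223% of all genes were called higher and 0.0957% lower. DESeq2 called 2 chains higher, where 0.658% of all genes were, and limma-voom with quality weights called 6, where 1.5% were. In 13 chains all 4 KO values lay above all 4 WT values, where 4.96% of all genes were so ordered, and in 1 chain all lay below, where 3.66% were. The 13 were Col1a1, Col1a2, Col3a1 and Col5a2 among fibrillar chains, Col4a4, Col4a5, Col4a6 and Col15a1 among basement membrane chains, Col6a1, Col6a2 and Col6a3 among beaded chains, and Col8a1 and Col9a3. The 1 chain below was Col18a1.

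Among the fibrillar chains, Col3a1 averaged 364 ± 25.0 CPM in KO HFMCD and 239.7 ± 30.0 CPM in WT HFMCD livers (SD, n = 4 each), a log2 change of 0.60 (SE 0.54, edgeR adjusted p = 0.787). Col1a1 averaged 132 ± 7.25 CPM in KO and 92.8 ± 16.9 CPM in WT, at 0.51 (SE 0.54, edgeR adjusted p = 0.835). Col5a2 had 35.4, 38.4, 35.7 and 37.5 CPM in the 4 KO HFMCD livers, against 25.9, 23.6, 23.1 and 21.2 CPM in the 4 WT HFMCD livers. The Col5a2 ranges were well apart, yet its log2 change of 0.65 (SE 0.33, edgeR adjusted p = 0.535) was not called. Col5a1 and Col14a1 overlapped between the genotypes, at 0.16 and 0.01. Col5a3 and Col11a2 leaned the other way, at -0.54 (SE 0.37) and -0.73 (SE 0.32). Of the beaded chains Col6a3, shown above by library, had 0.998 (SE 0.29, edgeR adjusted p = 0.181), and Col6a1 and Col6a2 had 0.43 (SE 0.31) and 0.45 (SE 0.36). Col8a1 had 5.72, 5.51, 4.45 and 4.83 CPM in KO, against 2.31, 2.85, 2.86 and 2.59 CPM in WT, at 0.95 (SE 0.36, edgeR adjusted p = 0.34).

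In the basement membrane class the major type IV chains overlapped between the genotypes, with log2 fold changes of 0.17 (SE 0.23) for Col4a1 and 0.30 (SE 0.21) for Col4a2. Among the rarer chains, Col4a4, Col4a5 and Col4a6 did not overlap and Col4a3 did. Col4a5 had 12.9, 18.8, 10.1 and 8.76 CPM in KO HFMCD livers, against 6.18, 6.92, 5.20 and 5.71 CPM in WT HFMCD livers, at 1.07 (SE 0.33, edgeR adjusted p = 0.184). Its divergent neighbour Col4a6 had 0.953, 2.10, 0.688 and 0.642 CPM in KO, against 0.206, 0.274, 0.363 and 0.365 CPM in WT, at 1.84 (SE 0.93, edgeR adjusted p = 0.532). Col4a4 averaged 2.07 ± 0.413 CPM in KO and 0.939 ± 0.182 CPM in WT, at 1.14 (SE 0.43, edgeR adjusted p = 0.342). Col15a1 was at 0.79 (SE 0.29, edgeR adjusted p = 0.335) and Col18a1 at -0.20 (SE 0.11, edgeR adjusted p = 0.581). The largest log2 fold change of the 33 was that of Col9a3, at 2.88 (SE 0.67, edgeR adjusted p = 0.0655), from 0.675, 0.993, 0.760 and 0.378 CPM in KO and 0.124, 0.156, 0.0807 and 0 CPM in WT. Exons of Col9a3 overlap those of Tcfl5 on the other strand by 234 bases.

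The calls on HFMCD changed with the libraries in the fit and with the test used. The fold changes of the named chains moved by little when chow libraries were left out. Over all alternatives the log2 fold change ran from 0.60 to 0.69 for Col5a2, 0.82 to 1.21 for Col4a5 and 2.49 to 3.27 for Col9a3. With KO chow replicates 1 and 7 left out of the fit, 5 chains were called higher, where 0.726% of all genes were. They were Col5a2 at 0.65 (SE 0.11, edgeR adjusted p = 0.0031), Col6a3 at 0.998 (SE 0.20, edgeR adjusted p = 0.0189), Col4a5 at 1.07 (SE 0.24, edgeR adjusted p = 0.0269), Col8a1 at 0.95 (SE 0.23, edgeR adjusted p = 0.0479) and Col9a3 at 2.88 (SE 0.62, edgeR adjusted p = 0.024). Without KO chow replicate 1 alone, where 0.359% of all genes were higher, Col9a3 was called at 2.88 (SE 0.63, edgeR adjusted p = 0.0385). With the 8 HFMCD libraries fitted alone, 10 chains were called higher, where 1.5% of all genes were, adding Col1a1, Col1a2, Col3a1, Col4a4 and Col15a1. In that fit Col3a1 had 0.59 (SE 0.10, edgeR adjusted p = 0.00847) and Col1a1 had 0.50 (SE 0.11, edgeR adjusted p = 0.0321). Over all alternatives the adjusted p ran from 0.00159 to 0.744 for Col5a2, 0.00761 to 0.413 for Col6a3, 0.0135 to 0.485 for Col4a5, 0.00951 to 0.539 for Col8a1 and 0.0124 to 0.21 for Col9a3, and from 0.00847 to 0.916 for Col3a1 and 0.0321 to 0.943 for Col1a1. Without the 4 Dmbt1-rich chow libraries 6 chains were called, those 5 and Col6a2 at 0.44 (SE 0.11, edgeR adjusted p = 0.0472), where 0.904% of all genes were. Leaving out any 1 of the 8 HFMCD livers from the 4-group fit gave no called chain. In those 8 fits 0 to 12 of all genes were called higher and 1 to 6 lower.

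**Figure D4:**
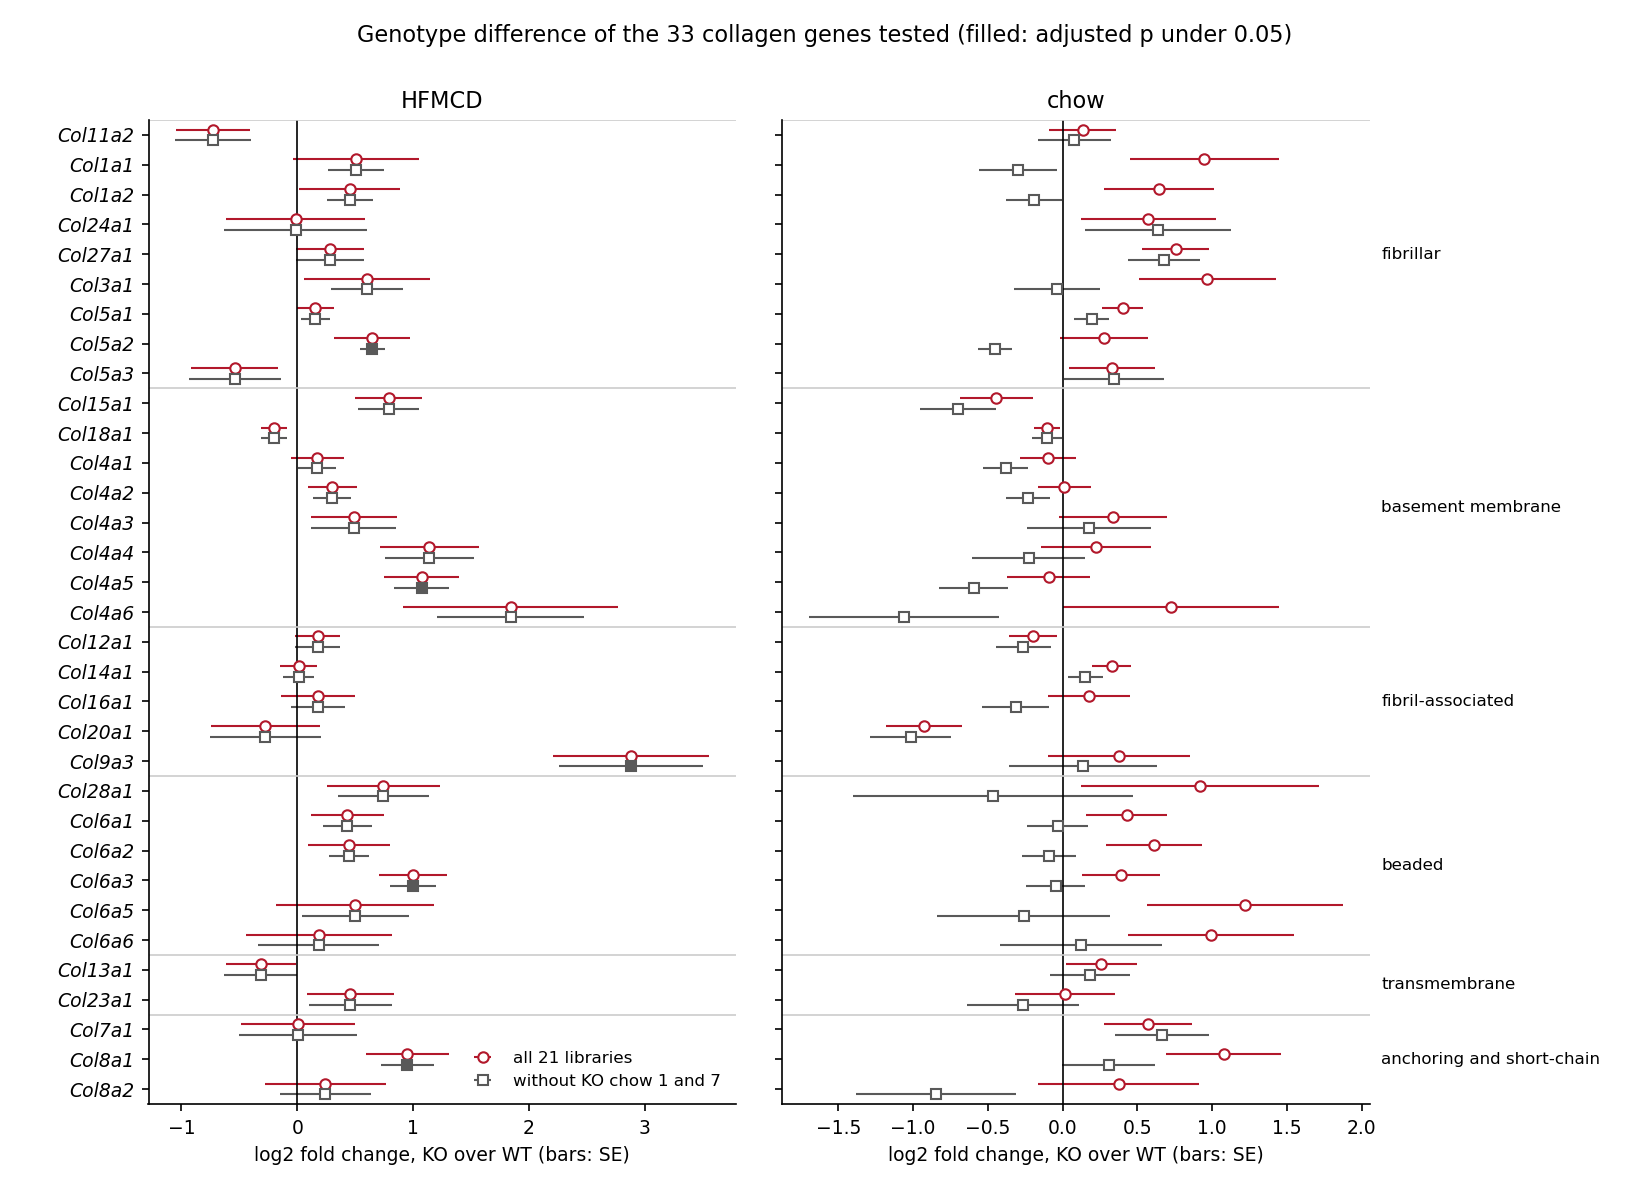
Log2 fold changes, KO over WT, of the 33 tested collagen genes on HFMCD (left) and chow (right), with all 21 libraries (red circles) and without KO chow replicates 1 and 7 (grey squares); bars are SE and filled points have an edgeR adjusted p under 0.05. On HFMCD the 2 fits give nearly the same values, mostly with shorter bars in the second, and on chow most values move left in the second.

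Markers of bile ducts also differed between KO and WT livers on HFMCD. The 12 cholangiocyte markers summed to 583 to 836 CPM in KO HFMCD and 218 to 259 CPM in WT HFMCD livers, and 6 of the 11 tested were called higher and none lower, where 0.223% and 0.0957% of all genes were. All 10 myofibroblast markers had a positive log2 fold change, where 51.1% of all genes did, with a median of 0.57 and none called. They summed to 333.1 to 383 CPM in KO and 203 to 255 CPM in WT. The 12 hepatic stellate cell markers summed to 502 to 618 CPM in KO and 547 to 596 CPM in WT, with 1 marker called lower and none higher. The 8 portal fibroblast and mesenchyme markers summed to 58.3 to 109 CPM in KO and 37.7 to 48.3 CPM in WT, with none called. The 10 endothelial markers summed to 406 to 434 CPM in KO and 453 to 522 CPM in WT, so that all 4 KO sums lay below the WT sums. Of these 10 markers 1 had a positive log2 fold change, where 51.1% of all genes did, the median was -0.21 and none was called. All KO values lay above all WT values in 10 cholangiocyte, 6 myofibroblast and 2 portal markers, where 4.96% of all genes were so ordered. They lay below in 3 stellate and 3 endothelial markers, where 3.66% of all genes did. No marker of these 5 lists was at 0 reads in either group, and their part in the collagen values was not tested.

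On chow no chain was called between KO and WT livers. Of the 33 chains 27 had a positive log2 fold change, where 52.1% of all genes did, with a median of 0.38 against 0.01 over all genes. By edgeR 0.561% of all genes were called higher and 1.61% lower. DESeq2 called Col27a1 higher and Col20a1 lower, where 1.57% of all genes were called higher and 3.22% lower, and limma-voom called none. No chain had KO and WT chow values without overlap, where 0.236% of all genes lay above and 0.421% below. Col20a1 averaged 1.81 ± 0.545 CPM in KO chow (SD, n = 7) and 3.45 ± 0.948 CPM in WT chow livers (SD, n = 6), at -0.93 (SE 0.26, edgeR adjusted p = 0.0566). Col27a1 averaged 13.9 ± 4.12 CPM in KO (SD, n = 7) and 8.24 ± 3.03 CPM in WT (SD, n = 6), at 0.76 (SE 0.22, edgeR adjusted p = 0.0789). Single libraries moved these values across the threshold. Col20a1 was called lower without KO chow replicate 5, WT chow replicate 4 or WT HFMCD replicate 4 (edgeR adjusted p = 0.0466, 0.0419 and 0.0349; 0.014 to 0.145 over all alternatives). Col27a1 was called higher without WT chow replicate 3 (edgeR adjusted p = 0.0428; 0.0231 to 0.192 over all alternatives). Col14a1 was called higher without KO chow replicate 5, at 0.41 (SE 0.11, edgeR adjusted p = 0.045), against 0.33 (SE 0.13, edgeR adjusted p = 0.182) with it (0.045 to 0.572 over all alternatives).

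The positive lean on chow shrank or was lost in fits without KO chow replicates 1 and 7. These were the 2 highest of the 13 chow libraries for 18 of the 33 chains, where 4.66% of all genes were so ordered, with 6 of 6 beaded, 5 of 9 fibrillar, 3 of 8 basement membrane, 2 of 5 fibril-associated, 2 of 3 anchoring and short-chain and 0 of 2 transmembrane chains. KO chow replicates 1 and 7 had 25.9 and 20.8 CPM of Col1a1, where the other 5 KO chow livers had 2.94 to 6.10 CPM and the 6 WT chow livers 3.16 to 9.62 CPM. Of Col3a1 they had 55.1 and 53.6 CPM, beside 8.13 to 14.6 CPM in the other 5 KO chow livers and 4.32 to 21.7 CPM in the 6 WT chow livers. Without the 2 libraries 12 of the 33 chains had a positive log2 fold change and none was called. The median was -0.10, against -0.004 over all genes. Col1a1 had -0.30 (SE 0.26, edgeR adjusted p = 0.63) without the 2, against 0.95 (SE 0.50, edgeR adjusted p = 0.333) with them, and Col3a1 had -0.04 (SE 0.29, edgeR adjusted p = 0.971), against 0.97 (SE 0.46, edgeR adjusted p = 0.279). Col5a2 stood at -0.45 (SE 0.11, edgeR adjusted p = 0.0575) without the 2, from 2.78 to 3.61 CPM in 5 KO chow livers and 3.73 to 5.47 CPM in 6 WT chow livers. With WT chow replicates 3 and 5 left out as well, 20 chains had a positive value and none was called. The median was then 0.09, against -0.009 over all genes. In that fit Col1a1 had 0.15 (SE 0.18, edgeR adjusted p = 0.74) and Col3a1 had 0.39 (SE 0.26, edgeR adjusted p = 0.507), both positive again, and Col5a2 had -0.39 (SE 0.11, edgeR adjusted p = 0.0898).

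Transcripts of muscle and mesenchyme were also high in some of these chow libraries. Myh11, the smooth muscle myosin, reached 52.8 CPM in KO chow replicate 1, 36.8 in KO chow replicate 7, 36.2 in WT chow replicate 3 and 11.8 in WT chow replicate 5, where the other 9 had 2.25 to 6.34 CPM. The 7 smooth muscle markers summed to 11.8 to 173 CPM in KO chow and 12.1 to 63.0 CPM in WT chow livers, and the 8 portal fibroblast and mesenchyme markers to 7.11 to 44.0 and 10.7 to 22.5 CPM. Ttn, the titin of striated muscle, had 331 CPM in KO chow replicate 7 and no more than 0.732 CPM in the other 12. Eln, the gene of elastin, reached 16.9 CPM in KO chow replicate 1 and 13.6 in KO chow replicate 7. Eln and the portal fibroblast and mesenchyme list are not particular to these chow libraries. In KO HFMCD livers Eln had 18.7 to 59.6 CPM and the list summed to 58.3 to 109 CPM. The part of these cells and tissues in the collagen values was not tested.

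**Figure D5:**
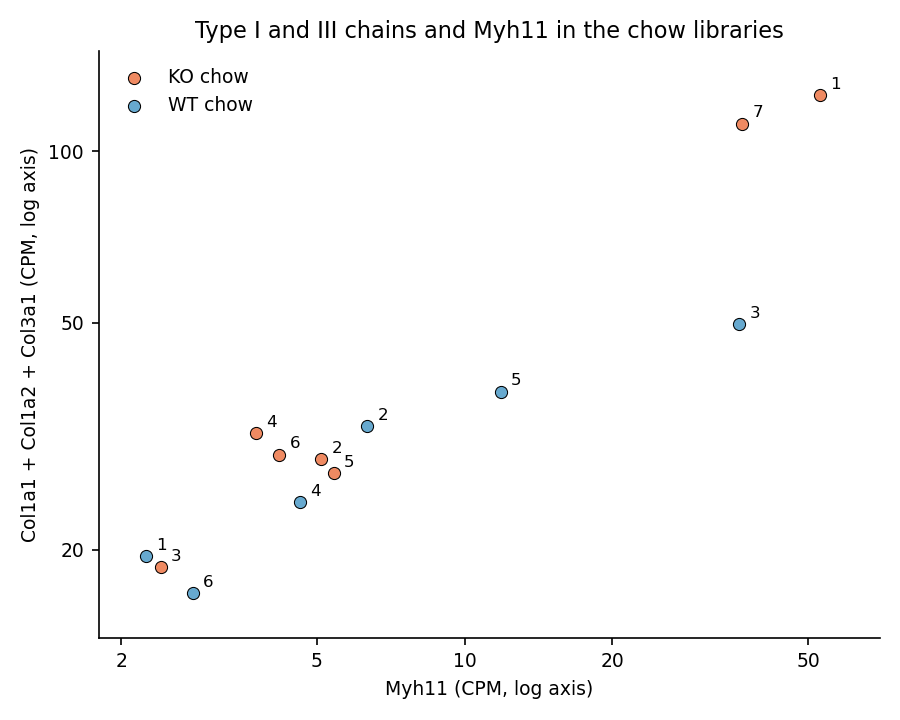
Summed CPM of Col1a1, Col1a2 and Col3a1 against Myh11 CPM in the 13 chow libraries, on log axes, with the replicate number beside each point. KO chow replicates 1 and 7 lie at the upper right and WT chow replicates 3 and 5 next below, while the other 9 lie between 2.25 and 6.34 CPM of Myh11.

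Whether the genotype difference itself differed between the diets was tested as 1 term, KO over WT on HFMCD minus KO over WT on chow. No chain and 0% of all genes were called by edgeR, and neither DESeq2 nor limma-voom called a chain. The largest values were those of Col9a3 at 2.50 (SE 0.83, edgeR adjusted p = 0.285), Col15a1 at 1.23 (SE 0.38, edgeR adjusted p = 0.242) and Col4a5 at 1.17 (SE 0.43, edgeR adjusted p = 0.351). Without KO chow replicates 1 and 7, Col5a2 was called at 1.10 (SE 0.16, edgeR adjusted p = 0.00161) and Col4a5 at 1.67 (SE 0.33, edgeR adjusted p = 0.0195), where 0.418% of all genes were higher. With WT chow replicates 3 and 5 also left out, where 0.291% were higher, Col5a2 was called at 1.04 (SE 0.15, edgeR adjusted p = 0.00186) and Col4a5, at 1.52 (SE 0.35, edgeR adjusted p = 0.0568), was not. Over all alternatives the adjusted p ran from 0.00161 to 1 for Col5a2 and from 0.0195 to 0.593 for Col4a5.

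Ratios between partner chains within a library do not depend on library scaling, and 4 were compared over 4 pairs of groups with exact two-sided permutation tests on log2 ratios. Type I collagen usually holds more alpha-1 than alpha-2 chain, and counts of Col1a2 per count of Col1a1 ran at 1.28 to 1.43 in KO HFMCD and 1.32 to 1.58 in WT HFMCD livers, against 1.70 to 3.66 in KO chow and 1.91 to 3.56 in WT chow livers. The ratio was lower on HFMCD without overlap in both genotypes. The mean log2 ratio differed by -0.81 in KO (exact permutation p = 0.00606, adjusted over the 16 tests 0.0762) and by -0.85 in WT (exact permutation p = 0.00952, adjusted 0.0762). These were the smallest adjusted values, so no ratio passed 0.05. Without WT chow replicate 4 the WT difference was -0.76 and its adjusted value 0.0423, and that of Col4a2 per Col4a1 in WT was -0.28, also at 0.0423 (exact permutation tests). Col4a2 per Col4a1 stayed within 0.515 to 0.633 in KO HFMCD, 0.4661 to 0.539 in WT HFMCD, 0.544 to 0.728 in KO chow and 0.507 to 0.681 in WT chow livers. Col3a1 per Col1a1 and Col6a2 per Col6a1 ran at 2.58 to 3.09 and 0.584 to 0.659 in KO HFMCD and at 2.39 to 2.81 and 0.586 to 0.663 in WT HFMCD livers. On chow they ran at 2.01 to 4.24 and 0.301 to 0.595 in KO and at 1.20 to 3.80 and 0.293 to 0.558 in WT. Between KO and WT the smallest exact permutation p of the 8 ratio tests was 0.234, and 4 livers against 4 cannot go below 0.0286.

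Collagen chains are hydroxylated, folded and crosslinked by dedicated enzymes, and a list of 32 such genes, 30 of them tested, is set beside the chains. With the diet 18 of the 30 rose and 8 fell in KO, and 18 rose and 7 fell in WT, beside the shares of all genes given above. Loxl2, a lysyl oxidase that crosslinks fibrils, rose by 2.80 (SE 0.16) in KO and 2.90 (SE 0.18) in WT on the log2 scale, and Serpinh1, the collagen chaperone HSP47, by 2.66 (SE 0.15) and 2.52 (SE 0.16). P4ha2, a prolyl 4-hydroxylase subunit, fell, to log2 fold changes of -2.08 (SE 0.13) in KO and -1.54 (SE 0.13) in WT. Between the genotypes on HFMCD none of the 30 was called, 11 lay above and 1 below without overlap, where 4.96% and 3.66% of all genes did. On chow 2 were called higher in KO and none lower, where 0.561% and 1.61% of all genes were. These were Pcolce, which enhances removal of the procollagen C-propeptide, at 0.58 (SE 0.13, edgeR adjusted p = 0.0222), and Crtap, a member of the prolyl 3-hydroxylation complex, at 0.54 (SE 0.13, edgeR adjusted p = 0.0323). Neither was called without KO chow replicates 1 and 7, where Pcolce had 0.47 (SE 0.13, edgeR adjusted p = 0.0794) and Crtap had 0.48 (SE 0.14, edgeR adjusted p = 0.0799). Pcolce was also lost without KO chow replicate 1 or 6 or WT chow replicate 6, and Crtap without KO chow replicate 1 or 6 or WT chow replicate 1, 5 or 6. Over all alternatives the adjusted p ran from 0.00119 to 0.108 for Pcolce and from 0.00395 to 0.117 for Crtap.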

How the data were processed

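RNA of 21 whole mouse livers was measured by RNA-seq, and the authors deposited raw read counts per gene for each library. Per the submitters' processing notes, the tools were CASAVA 2.17, STAR 2.6.1d and featureCounts 1.6.1 with the genome build GRCm38. The labels' protocols give standard Illumina libraries, and no strand setting is given in the sources used here. Library totals of 17502231 to 25822972 counts set the precision, and intervals or floors from counts cover counting error only.

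From these counts, TMM-scaled CPM values were computed, and genes were kept by edgeR's filterByExpr over the 4 groups, which left 15677 of 55418. One model with 4 group means was fitted by edgeR's robust quasi-likelihood test (edgeR 4.0.16, R 4.3.3), with 5 contrasts and Benjamini-Hochberg adjustment over all genes at 0.05. The spread of a gene is shared over the 4 groups in this model. The spread among chow livers therefore enters the SE of KO against WT on HFMCD. The standard error of a log2 fold change is its size divided by the square root of the F statistic. Levels per kilobase divide the mean CPM by the longest protein-coding transcript of the annotation, whose build matches the counts. Ratios of partner chains were compared with exact permutation tests after adding 0.5 reads to both genes, with adjustment over 16 tests. The scripts were tested on simulated data.

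Other settings tried were limma-voom with quality weights (limma 3.58.1), DESeq2 1.42.0, RLE and upper-quartile scaling, no filter, a filter of 1 CPM in at least 4 libraries, fits of 2 groups only, each of the 21 libraries left out in turn, and KO chow replicates 1 and 7, or those and WT chow replicates 3 and 5, left out. Each library has its own animal number and none of the 48 within-group pairs held identical values. Members, gene lists and alternatives were chosen with earlier results of these data known. The rule for names allowed every tested chain, the chains of types I, III to VI, XII to XV, XVIII and others in full, and from the processing list up to 4 called genes with the smallest p per contrast. Myh11, Eln and the alternatives' single calls are named after their values were seen.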

Additional observations from a re-analysis of the deposited data

Results flagged for a closer look

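Among the 84 groups of 4 to 7 libraries examined for 1 library far from the others, 3 held one, and chance gives about 1 in 20. Col1a1 stood at 117.9 CPM in WT HFMCD replicate 2, against 81.5 to 87.0 CPM in the other 3 livers of that group. Col6a1 stood at 55.6 CPM in KO HFMCD replicate 2, against 40.1 to 42.0 CPM in the other 3, and Col6a2 stood at 32.5 CPM in the same liver, against 26.4 to 27.1 CPM in the other 3. Leaving out either library called no chain between KO and WT livers on HFMCD. Among all genes, the fit without WT HFMCD replicate 2 called 0 higher and 1 lower. The fit without KO HFMCD replicate 2 called 2 higher and 1 lower. The flag compares the gap of 1 library with the range of its group, so 2 libraries far from the rest together can go unflagged. KO chow replicates 1 and 7 were such a pair for Col1a1, at 25.95 and 20.75 CPM, its 2 highest chow values.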

How the results depend on the processing

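No chain reversed its direction among the called results under any alternative, and the scalings moved the median of all genes by less than 0.1 on the log2 scale. Between KO and WT on HFMCD, 0 chains were called higher by edgeR with all libraries, 2 by DESeq2, 6 by limma-voom, 10 with 2 groups only, 5 without KO chow replicates 1 and 7 and 6 without the 4 Dmbt1-rich chow libraries; with 1 library left out the count ran from 0 to 1. On chow, DESeq2 called 1 higher and 1 lower, and leaving out 1 library gave 0 to 1 in each direction. For the difference of the KO effect, 2 were called without KO chow replicates 1 and 7 and 1 without the 4 Dmbt1-rich chow libraries. With the diet, 19 of 21 higher and 7 of 7 lower calls in KO, and 16 of 19 higher and 5 of 6 lower calls in WT, held under all alternatives. The cause of these changes was not tested. With 1 library left out, the WT diet difference in log2 ratio ran from -0.94 to -0.76 for Col1a2 over Col1a1 and from -0.28 to -0.19 for Col4a2 over Col4a1. No paired analysis was possible because each animal has its own number and the groups share none. Chains under 1 CPM rest on few reads, and 11 chains could not be tested.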
